A study of Mus musculus with 65 samples.

Results

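Genes that copy DNA and divide the cell were followed through bone marrow derived dendritic cells and RAW264.7 macrophages, before and after lipopolysaccharide (LPS), a bacterial product sensed by Toll-like receptor 4. The members are 43 of the 23755 gene symbols in the deposited count table, taken by name. Of these, 21 act in DNA replication or the step into S phase: Mcm2 to Mcm7, Mcm10, Cdc6, Cdt1, Cdc45, Gins1, Gins2, Pcna, Prim1, Pola1, Rrm1, Rrm2, Tyms, Ccne1, Ccne2 and E2f1. The other 22 act in mitosis: Ccna2, Ccnb1, Ccnb2, Cdk1, Plk1, Aurka, Aurkb, Bub1, Bub1b, Cdc20, Cenpe, Cenpf, Kif11, Kif20a, Kif23, Tpx2, Aspm, Nusap1, Prc1, Top2a, Mki67 and Birc5. All 43 passed the filter on low counts in every fit, so none is left out of any count given here.

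The series holds 65 mouse libraries of polyadenylated RNA in 19 groups. In the second experiment, untreated C57BL/6 dendritic cells were wild type, lacked the histone H3K9 methyltransferase Suv39h1 (Suv39h1KO), lacked the type I interferon receptor (IfnarKO) or lacked both, with 3 libraries each. In the third, C57BL/6 dendritic cells had LPS at 100 ng/mL for 0, 2 or 4 h. Wild-type cells gave 6, 5 and 6 libraries at these times, and cells labelled MyD88KO or TrifKO, for the 2 signalling adaptors below Toll-like receptor 4, gave 3 each. In the fifth, RAW264.7 cells, a macrophage line given as BALB/c in the labels, carried a control guide RNA (gRNA_Ctrl), guide 1 or guide 2 and had LPS for 0 or 2 h, with 3 libraries each. The titles of the libraries in the fifth experiment carry the prefix DC, as those of the dendritic cells do. The labels give neither the targets of guides 1 and 2 nor the LPS dose of the RAW264.7 cells. Whether a knockout is confined to a cell type is not given in the labels, and cultures from bone marrow hold more than 1 kind of cell. In bulk RNA, fewer dividing cells and less of these transcripts per dividing cell cannot be told apart.

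DNA replication is prepared in G1, when Cdc6 and Cdt1 load the Mcm2 to Mcm7 ring on origins. Cyclin E and E2F factors then start S phase, and Cdc45 and the GINS proteins turn the ring into a running helicase. Mitosis is driven by cyclin B with Cdk1, by Polo and Aurora kinases and by a spindle of motor proteins, and is ended when Cdc20 directs the anaphase-promoting complex to its targets. Genes of the first phase are classical targets of E2F factors, while many genes of the second carry a cell cycle homology region (CHR) and CCAAT boxes near their start.

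The RefSeq promoter table, on GRCm38.p6, held 35 of the 43 members with 37 windows of 250 bases before to 50 bases after the annotated start. The windows below show how the 2 gene groups differ in these letters. Each line gives the 120 bases before the start on the gene's own strand, 5′ to 3′. Capitals mark matches, on either strand, to the E2F-type word TTCCCGC or one of its relatives, which are TTGGCGC and then TTCGCGC and also TTGCCGC, to the CHR-type word TTTGAA or its relative TTTAAA, and to the CCAAT box, and neighbouring capitals can hold matches that overlap. The first 4 are mitotic genes: Cdc20 at chr4:118437344-118437463 (minus strand), Kif11 at chr19:37376262-37376381 (plus), Top2a at chr11:99024190-99024309 (minus) and Plk1 at chr7:122159315-122159434 (plus).
Cdc20: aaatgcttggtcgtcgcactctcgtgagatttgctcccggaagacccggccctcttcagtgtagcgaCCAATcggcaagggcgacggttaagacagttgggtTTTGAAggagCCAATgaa
Kif11: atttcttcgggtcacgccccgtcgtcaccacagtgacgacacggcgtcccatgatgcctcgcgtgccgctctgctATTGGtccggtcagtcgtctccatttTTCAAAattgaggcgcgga
Top2a: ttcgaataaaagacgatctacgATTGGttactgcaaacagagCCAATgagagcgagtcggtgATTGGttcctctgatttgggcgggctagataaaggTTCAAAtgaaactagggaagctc
Plk1: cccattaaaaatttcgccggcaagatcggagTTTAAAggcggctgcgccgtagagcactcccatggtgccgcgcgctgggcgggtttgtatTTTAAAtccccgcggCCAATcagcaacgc
The next 3 are replication genes that hold E2F-type words: Mcm6 at chr1:128359706-128359825 (minus), Rrm1 at chr7:102441575-102441694 (plus) and Prim1 at chr10:128015095-128015214 (plus).
Mcm6: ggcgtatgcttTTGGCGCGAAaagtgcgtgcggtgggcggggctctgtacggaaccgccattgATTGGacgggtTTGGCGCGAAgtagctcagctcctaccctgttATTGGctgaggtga
Rrm1: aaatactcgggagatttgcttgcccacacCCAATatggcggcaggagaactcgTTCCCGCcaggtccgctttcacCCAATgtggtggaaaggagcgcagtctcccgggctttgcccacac
Prim1: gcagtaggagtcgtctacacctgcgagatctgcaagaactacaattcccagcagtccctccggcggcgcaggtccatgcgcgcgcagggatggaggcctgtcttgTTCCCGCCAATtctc
The last 2 belong to the replication genes that rose with LPS in wild-type cells: Tyms at chr5:30073626-30073745 (minus), which holds none of the words, and Mcm10 at chr2:5012792-5012911 (minus), which holds only CCAAT.
Tyms: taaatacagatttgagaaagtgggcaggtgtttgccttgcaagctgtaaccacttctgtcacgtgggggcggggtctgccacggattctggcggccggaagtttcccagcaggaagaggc
Mcm10: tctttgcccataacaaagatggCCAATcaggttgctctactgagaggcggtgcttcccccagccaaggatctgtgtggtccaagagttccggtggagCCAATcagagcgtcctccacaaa

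An E2F-type word stood in the whole 300-base window of 10 of 17 replication members (58.8%) and 3 of 18 mitotic members (16.7%), namely Ccnb1, Cdk1 and Mki67. Over all 32851 windows of the table the share was 9.57%. TTTGAA showed the opposite split, with 2 of 17 replication members (11.8%), 13 of 18 mitotic members (72.2%) and 17.9% of all windows. The related word TTTAAA stood in 17.6% of replication, 38.9% of mitotic and 13.2% of all windows. CCAAT stood in 70.6% of replication, 88.9% of mitotic and 37.4% of all windows, and 2 or more copies stood in 41.2%, 55.6% and 11.7%. These are matches of letters, which do not show that a factor binds.

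**Figure D1:**
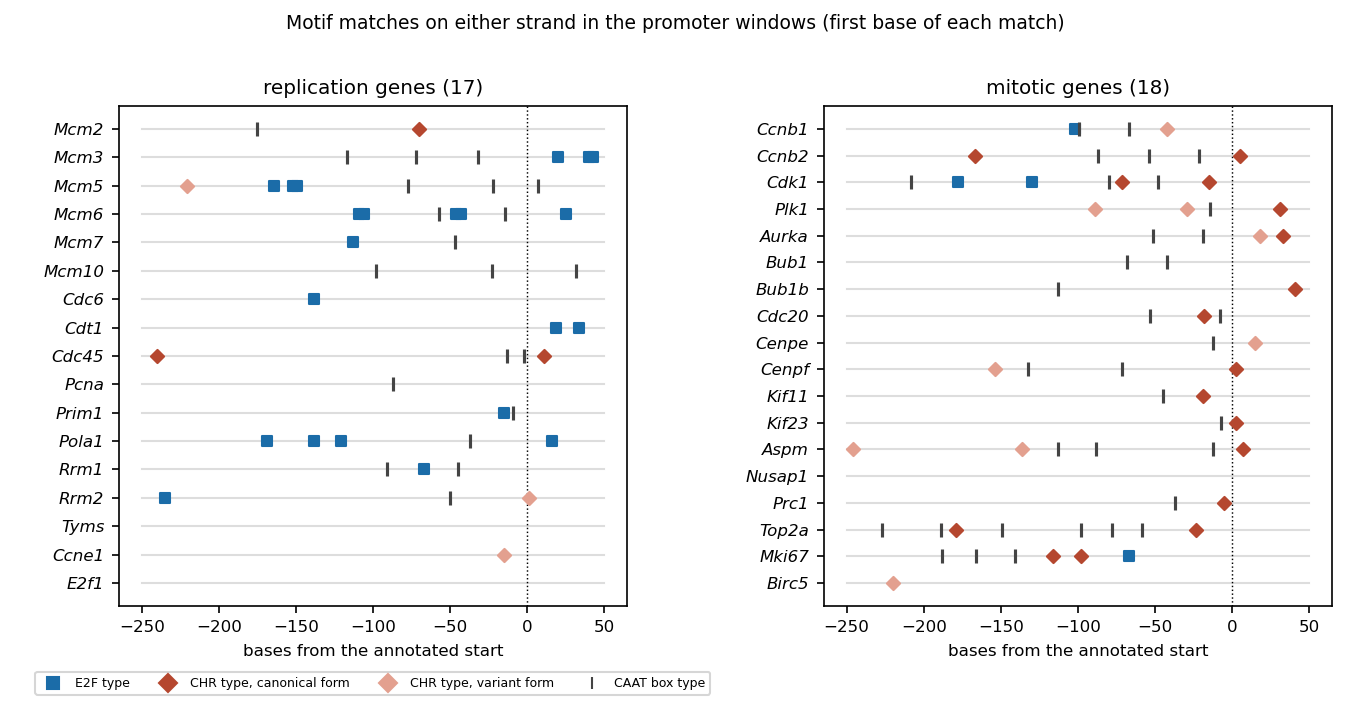
Positions of the motif matches in the promoter windows of the 35 matched members; the x axis is the distance in bases from the annotated start, and each mark is the first base of a match. E2F-type squares lie mostly in the 17 replication windows and CHR-type diamonds mostly in the 18 mitotic windows.

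The libraries held 36879570 to 95292653 counts. Levels below are counts-per-million (CPM) on library sizes scaled by TMM within each experiment, and tests are edgeR's quasi-likelihood test with Benjamini-Hochberg adjustment over all genes tested, called at an adjusted p under 0.05. The 14 dendritic cell markers summed to 15317 to 19804 CPM in wild-type cells at 0 h and to 375 to 679 CPM in RAW264.7 cells. Flt3 and H2-Ab1 were at 0 in the control-guide RAW264.7 cells at 0 h. The 10 macrophage markers did not separate them, at 5286 to 10554 CPM in the same wild-type cells and 7031 to 8602.5 CPM in RAW264.7 cells. The 7 granulocyte markers summed to 501 to 1086 CPM in those wild-type cells. Suv39h1 was at 0.11 to 0.371 CPM in the cells labelled as lacking it and at 36.9 to 64.6 CPM in the other dendritic cells of that experiment. Ifnar1, a subunit of the interferon receptor, was at 122 to 161 CPM in cells labelled IfnarKO and at 173 to 218 CPM in the others. Myd88 was at 46.2 to 48.6 CPM in MyD88KO cells and at 72.2 to 80.7 CPM in wild-type cells at 0 h. At 2 and 4 h it was at 83.3 to 115 CPM in MyD88KO cells, above untreated wild type, and at 269 to 461 CPM in wild-type cells. Ticam1, the gene of Trif, was at wild-type level in most libraries labelled TrifKO. In 7 of the 9 it held 29.8 to 50.3 CPM, within the wild-type range of 25 to 58.4 CPM. Only replicate 3 at 2 h (2.94 CPM) and at 4 h (2.46 CPM) were low. Myd88 held 125 to 167 CPM in all libraries labelled TrifKO at 2 and 4 h, below the 269 to 461 CPM of wild-type cells. The labels give no allele, and a transcript level does not show whether protein is made. These are therefore called the libraries labelled TrifKO. Counts or medians of the members that rest on the 2 low-Ticam1 libraries are also given without them. Values of further lists and of most single genes are not. Wild-type libraries of the third experiment form a low-numbered set (1 to 14) and a high-numbered set (33 to 41). Xist, which marks female cells, was near 0 in replicate 3 alone at every time in wild-type and MyD88KO cells of the third experiment. In the libraries labelled TrifKO it was high in replicates 2 and 3 at 0 h, 2 at 2 h and 1 at 4 h, so a replicate number there joins libraries of different sex. All MyD88KO libraries carry low and all libraries labelled TrifKO high numbers, so values within each set are given beside pooled ones.

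Per kilobase of exon, mitotic transcripts stood above replication transcripts in untreated wild-type dendritic cells of the third experiment, with medians of 17.15 and 4.466 CPM per kb. Pcna, the sliding clamp of DNA polymerases, had the highest level of all 43 at 62.8 CPM per kb. It was followed by the mitotic cyclin Ccnb2 (37.1), the proliferation marker Mki67 (30.2), the DNA-untangling topoisomerase Top2a (29.7) and Cdc20 (28.7). The lowest levels were those of Cdc6 (1.23), the polymerase alpha subunit Pola1 (1.76) and Mcm10 (2.24), all replication genes. The medians in untreated wild-type cells of the second experiment were 16.63 CPM per kb for mitotic and 6.58 for replication members. No test was made between genes. Length was that of all annotated exon bases of a gene, not of the transcript in use. The order of genes, and the gap between the 2 lists, can depend on it.

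After 4 h of LPS, wild-type dendritic cells held far less mitotic mRNA and somewhat less replication mRNA. Of 22 mitotic members 21 fell and none rose, and of 21 replication members 18 fell and 2 rose, so 39 of 43 fell. Over all genes tested, 35.1% were called lower and 30.0% higher. The median log2 change was -1.94 for mitotic and -0.67 for replication members, beside -0.07 for all genes. The summed level of the mitotic members was 1911 ± 346 CPM (SD, n = 6) at 0 h and 756 ± 309 CPM (n = 6) at 4 h, and that of the replication members 798 ± 166 and 528 ± 129 CPM. Groups did not overlap for 16 mitotic and 6 replication members, and over all genes 42.9% did not overlap. Within the low-numbered set 2 members rose and 35 fell, with a mitotic median of -1.57, and within the high-numbered set 3 rose and 31 fell, with a mitotic median of -2.54.

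Among the spindle genes, Aspm, which organises spindle poles, ran from 36.5 to 67.2 CPM (median 43.5) in the 6 libraries at 0 h and from 1.93 to 9.55 CPM (median 2.94) at 4 h. The lowest untreated library was thus above the highest stimulated one, and the log2 change of -3.34 ± 0.33 (SE, adjusted p = 5.7e-10, edgeR) was the largest of the members. Cenpf, a kinetochore protein, ran from 48.4 to 79.9 CPM (median 52.3) at 0 h and from 2.29 to 14.1 CPM (median 3.77) at 4 h, again without overlap (log2 change -3.26 ± 0.38). The motors Kif23 (-2.72), Kif20a (-2.48) and Kif11 (-2.12) and the midzone bundler Prc1 (-1.87) fell too, all with separate groups. Cenpe, a kinetochore motor, fell by only 0.83 and its groups overlapped. Tpx2, which brings Aurora A to the spindle, was the only mitotic member not called: it held 68.9 to 105 CPM at 0 h and 65.5 to 98.2 CPM at 4 h (log2 change -0.08 ± 0.14, adjusted p = 0.62, edgeR).

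Cdc20, the activator of the anaphase-promoting complex, held 39.3 to 64.0 CPM (median 53.1) at 0 h and 3.02 to 16.9 CPM (median 5.72) at 4 h. The 2 groups were apart and the log2 change was -2.74 ± 0.30 (adjusted p = 3.9e-09, edgeR). The checkpoint kinases Bub1b (-2.0) and Bub1 (-1.72) fell with it. Plk1, the Polo kinase of mitotic entry, held 30.6 to 53.3 CPM at 0 h and 4.08 to 17 CPM at 4 h, with a log2 change of -2.34 ± 0.30. The Aurora kinases Aurkb (-2.06) and Aurka (-2.03) and the cyclins Ccnb1 (-2.10), Ccna2 (-1.87) and Ccnb2 (-1.61) also had separate groups. Cdk1, the kinase these cyclins activate, fell by 1.09 ± 0.23 with overlapping groups. At 4 h the high values of Plk1, Cdc20, Aspm and Cenpf all came from low-numbered replicates 1 and 2. Birc5, a subunit of the chromosomal passenger complex, fell by 1.66 and the spindle protein Nusap1 by 1.29. Top2a ran from 209 to 334 CPM at 0 h and from 51.0 to 213 CPM at 4 h, so the highest stimulated library lay inside the untreated range (log2 change -1.37 ± 0.26). Mki67 fell by only 0.38 ± 0.15 (adjusted p = 0.024, edgeR), from 259 to 387 CPM at 0 h to 162 to 295 CPM at 4 h.

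Among the replication members the nucleotide enzymes went both ways. Rrm2, the regulated subunit of ribonucleotide reductase, ran from 36.4 to 87.9 CPM (median 70.5) at 0 h and from 8.55 to 33.9 CPM (median 14.1) at 4 h. The groups were apart, and the log2 change of -1.85 ± 0.37 (adjusted p = 5.9e-05, edgeR) was the largest fall of the 21. Rrm1, its large subunit, fell by 0.82 ± 0.25 and its groups overlapped. Tyms, which makes thymidylate, ran the other way, from 14.1 to 30.3 CPM at 0 h to 34.5 to 41.2 CPM at 4 h. All 6 stimulated libraries were above all untreated ones, and Tyms rose by 0.76 ± 0.13 on the log2 scale (adjusted p = 7.8e-06, edgeR).

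The origin-licensing genes fell unevenly. Cdc6 ran from 3.34 to 8.98 CPM at 0 h and from 1.44 to 2.52 CPM at 4 h, without overlap (log2 change -1.61 ± 0.34). Mcm7 (-1.47) and Mcm2 (-1.30) had separate groups as well, and Mcm2 went from 21.5 to 33.5 CPM down to 7.09 to 17.7 CPM. The other ring subunits moved less, with Mcm6 at -0.67, Mcm4 at -0.58, Mcm5 at -0.52 (adjusted p = 0.027, edgeR) and Mcm3 at -0.49, all called and all with overlapping groups. Mcm10, which joins the helicase at firing origins, rose by 0.74 ± 0.15 (adjusted p = 0.00011, edgeR), from 12.7 to 21 CPM at 0 h to 20.3 to 42.2 CPM at 4 h. One stimulated library lay inside the untreated range. Of the helicase cofactors, Cdc45 (-0.97) and Gins1 (-0.98) fell, and Gins2 did not pass (0.24 ± 0.17). Of the exon bases of Gins2, 67.3% overlap Gse1 on the other strand, and whether counting used the strand is not given in the sources used here.

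At the fork and the entry to S phase the falls were of middling size. Prim1, the primase subunit, fell by 1.17, Pola1 by 0.64 and Pcna by 0.30 ± 0.11 (adjusted p = 0.016, edgeR). Pcna held 131 to 188 CPM at 0 h and 98.2 to 149 CPM at 4 h, and its groups overlapped. E2f1, a transcription factor of S-phase genes, ran from 12 to 17.3 CPM at 0 h and from 4.03 to 7.58 CPM at 4 h. Its groups were apart and it fell by 1.30 ± 0.17 (adjusted p = 6.9e-08, edgeR). The E cyclins Ccne1 and Ccne2 fell by 0.80 and 0.67.

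**Figure D2:**
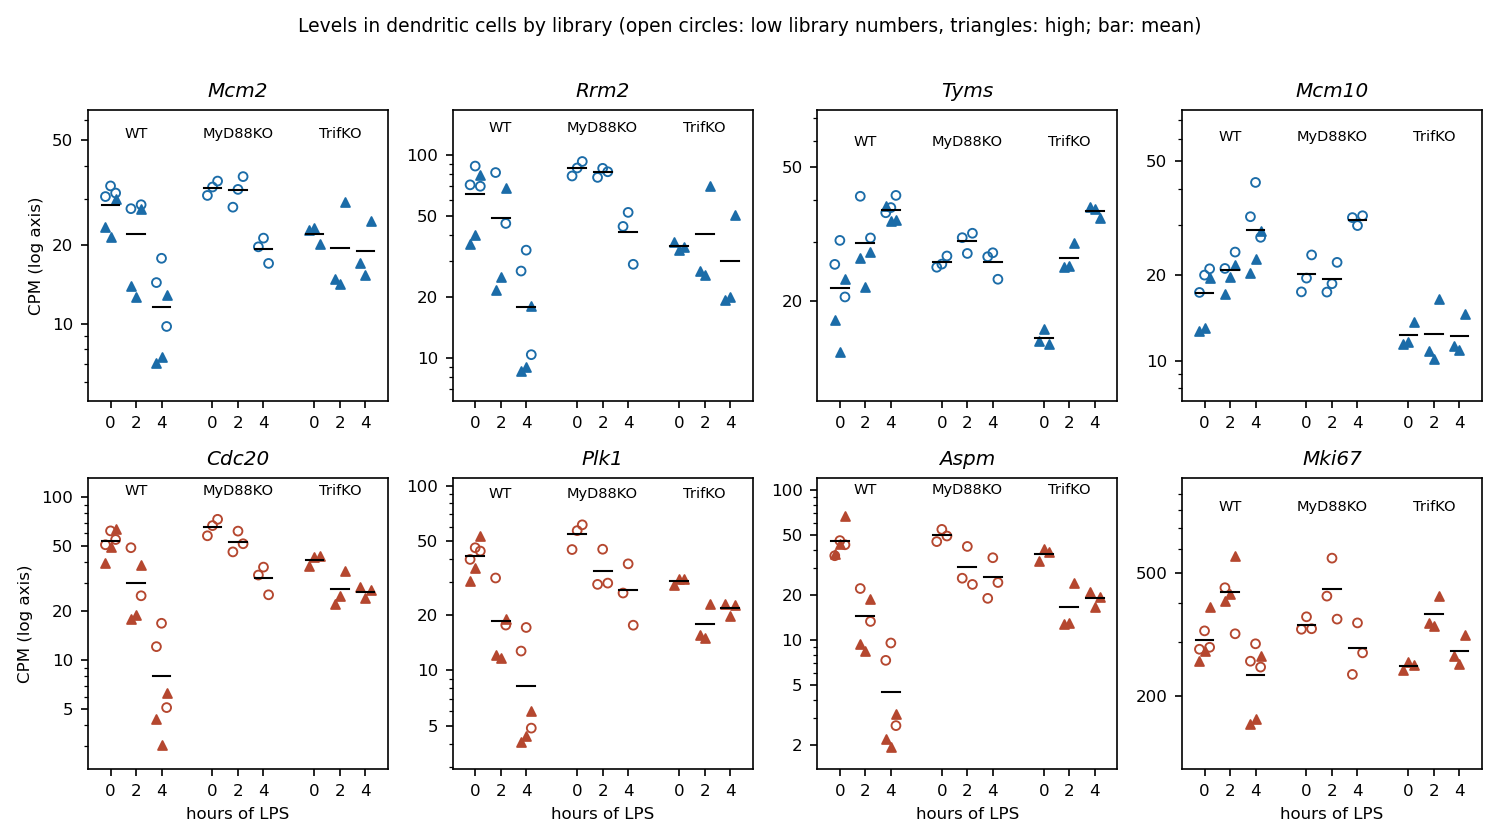
CPM of 4 replication members (upper row, blue) and 4 mitotic members (lower row, red) in each library of the third experiment, on log axes, against hours of LPS; open circles are low-numbered libraries, triangles high-numbered ones and bars are means. In wild-type cells Cdc20, Plk1 and Aspm at 4 h lie below every untreated library, while Tyms lies above; MyD88KO cells and the libraries labelled TrifKO end higher than wild type for Aspm.

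**Figure D3:**
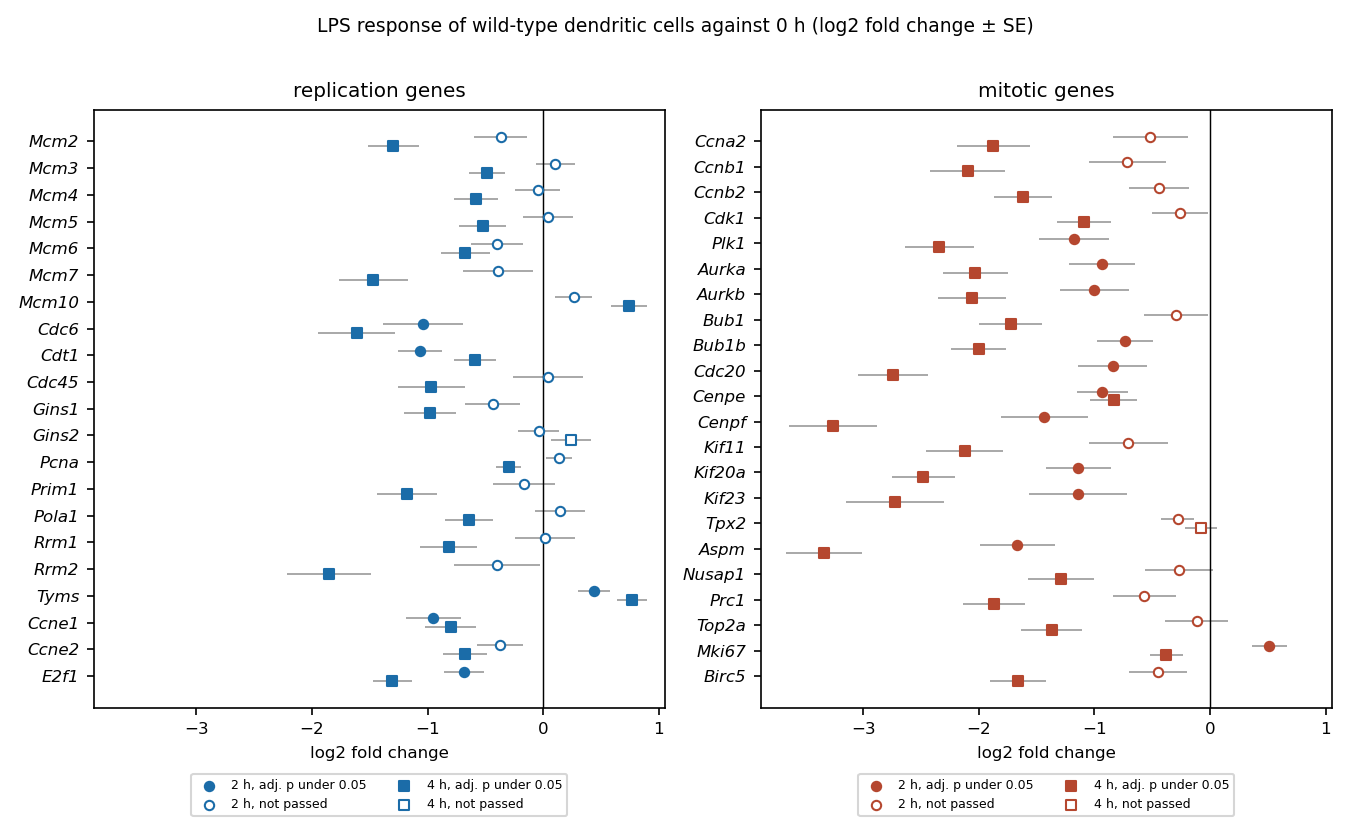
Log2 fold change with SE of each member in wild-type dendritic cells at 2 h (circles) and 4 h (squares) of LPS against 0 h; filled marks have an adjusted p under 0.05. Mitotic members lie farther left at 4 h, where Tyms and Mcm10 rose; Mki67 and Tyms rose at 2 h.

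At 2 h only part of this was seen. Of the 43 members 14 fell (10 mitotic, 4 replication) and 2 rose, where 24.6% of all genes were called lower and 21.3% higher, 45.9% in all. The median log2 change was -0.71 for mitotic and -0.16 for replication members, beside -0.05 for all genes. For 5 members, Cdt1, Bub1b, Cenpf, Kif20a and Aspm, the 0 and 2 h libraries did not overlap, beside 26.5% of all genes. Without low-numbered replicate 1 at 2 h, 25 members fell, 1 rose and the replication median was -0.36. Without high-numbered replicate 1 at 2 h the replication median was 0.01, so its sign turned. In the low-numbered set alone, with 2 libraries at 2 h, 3 members fell, 1 rose and the mitotic median was -0.37, and in the high-numbered set alone 18 fell and 2 rose. With the library set and replicate number as a block 23 fell.

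Cdt1, the licensing factor that is destroyed in S phase, had the clearest early fall. It held 11.9 to 16.4 CPM at 0 h and 5.92 to 7.70 CPM at 2 h, without overlap (log2 change -1.06 ± 0.19, adjusted p = 3.5e-05, edgeR). At 4 h it spread from 5.76 to 13.3 CPM, with both highest values in high-numbered libraries. Cdc6 (-1.04 ± 0.35), Ccne1 (-0.95 ± 0.23) and E2f1 (-0.69 ± 0.17) fell by 2 h too. Aspm fell by 1.66 ± 0.33 and Cenpf by 1.43 ± 0.38, followed by Plk1 (-1.18), Kif20a (-1.14), Kif23 (-1.14), Aurkb (-1.0), Aurka (-0.94), Cenpe (-0.93), Cdc20 (-0.84) and Bub1b (-0.74). The values of Ccna2 (-0.52), Ccnb1 (-0.72), Cdk1 (-0.26), Top2a (-0.11), Rrm2 (-0.40), Rrm1 (0.01), Mcm2 (-0.37), Mcm5 (0.04), Mcm6 (-0.40), Ccne2 (-0.38) and Pcna (0.13) did not pass at 2 h.

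Mki67 and Tyms rose at 2 h. Mki67 held 259 to 387 CPM at 0 h and 318 to 567 CPM at 2 h, a log2 rise of 0.51 ± 0.15 (adjusted p = 0.0062, edgeR) with overlapping groups, and Tyms rose by 0.44 ± 0.14. Between 2 and 4 h, 32 members fell and 1 rose, where 17.1% of all genes were called lower and 18.6% higher, 35.8% in all. Cdc20 had the largest fall (-1.90 ± 0.30), followed by Cenpf (-1.83), Aspm (-1.67) and Kif23 (-1.58), and Mki67 turned down by 0.89 ± 0.15. Cdc20 and Mki67 were the only members whose 2 h and 4 h libraries did not overlap, beside 15.3% of all genes. The member that rose was Mcm10 (0.48 ± 0.16, adjusted p = 0.022, edgeR). No member rose without high-numbered replicate 1 at 2 h or under upper-quartile scaling, 3 rose without low-numbered replicate 1 at 2 h, and 2 rose without replicate 3 of the low-numbered set at 2 h or of either set at 4 h. Cdt1 (0.47 ± 0.19, adjusted p = 0.052, edgeR), Ccne1 (0.15) and Cenpe (0.10) did not pass between 2 and 4 h.

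Other cell cycle genes of the wild-type cells were counted from lists set beside the members, to be read against the 30.0% of all genes called higher and the 35.1% called lower at 4 h. Of 42 further replication genes 29 fell and 5 rose by 4 h (median -0.78), led by the fork protein Clspn (-2.56 ± 0.44) and the polymerase subunits Pole2 (-1.84) and Pold1 (-1.77). Of 52 further mitotic genes 48 fell and 2 rose (median -1.93), led by the phosphatase Cdc25b (-2.80) and the kinesin Kif2c (-2.74). Pttg1, the securin that holds sister chromatids until anaphase, rose by 3.12 ± 0.16, from 15.8 to 19.9 CPM at 0 h to 96.3 to 211 CPM at 4 h. Of 13 G1 cyclins, their kinases and E2F factors 6 rose and 5 fell: the D-type cyclins Ccnd2 (5.42 ± 0.32) and Ccnd1 (1.81) and the kinase Cdk6 (1.49) rose, and E2f2 (-2.90) and E2f7 (-2.07) fell. Of 18 inhibitors and brakes 7 rose and 7 fell, so both this and the G1 list lay near the shares over all genes. In the inhibitor list Cdkn1a, the p21 inhibitor of cyclin-dependent kinases, rose by 2.59 ± 0.18, from 281 to 392 CPM at 0 h to 1594 to 2546 CPM at 4 h. Cdkn1a had risen by 2.66 at 2 h. Gadd45b (2.02) and Ccng2 (1.53) rose at 4 h, and the inhibitor Cdkn2c (-2.19) and the pocket protein Rbl2 (-1.41) fell.

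Markers of other cells were read beside these changes. The 10 progenitor markers summed to 45.7 to 71.6 CPM at 0 h and 37.3 to 60.8 CPM at 4 h in wild-type cells, with Hoxa9 at 0 at 4 h. At 4 h the 10 macrophage markers summed to 6138 to 12758 CPM and the 7 granulocyte markers to 717 to 1249 CPM. The 9 mast cell and basophil markers summed to 34 to 73.0 CPM at 0 h and 81.5 to 212 CPM at 4 h. Of the latter, 7 were tested and 1 was called, Hdc, which held 2.18 to 7.79 CPM at 0 h and 34.7 to 138 CPM at 4 h. Their part in the members' changes was not tested.

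In MyD88KO cells 7 members fell by 4 h (4 replication, 3 mitotic) and 1 rose, where 17% of all genes were called lower and 17.1% higher. The part of the members that fell lay near the share over all genes, and the part that rose lay below it. The median log2 change was -0.81 for mitotic and -0.47 for replication members, beside -0.05 for all genes, and 42 of 43 values were below 0. The 0 h and 4 h libraries did not overlap for 37 members, beside 46.3% of all genes. Replicate numbers pair these libraries, and with the number as a block 11 members fell, or 31 with a block of library set and number. The count was 2 without replicate 2 or 3 of the 0 h libraries or replicate 1 or 3 of the 4 h libraries, and 4 without replicate 1 at 0 h.

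Cdt1 held 17.6, 17.8 and 17 CPM in MyD88KO replicates 1, 2 and 3 at 0 h, then 9.95, 10.7 and 4.79 CPM at 4 h. All stimulated libraries were lower (log2 change -1.04 ± 0.25, adjusted p = 0.002, edgeR). E2f1 fell by 0.93 ± 0.23, Prim1 by 0.92 ± 0.36 and Ccne1 by 0.82 ± 0.31. Kif20a (-1.05 ± 0.37), Cdc20 (-1.05 ± 0.40) and Birc5 (-0.95 ± 0.34) were the mitotic members that fell. Cdc20 held 58.1, 67.0 and 73.2 CPM at 0 h, then 33.4, 37.3 and 25.2 CPM at 4 h. Mcm10 rose by 0.63 ± 0.22, from 17.4, 19.5 and 23.5 CPM to 31.8, 29.8 and 32.2 CPM. Mcm10 was not called under upper-quartile scaling (0.54), nor without replicate 1 or 2 at 0 h or replicate 1 or 3 at 4 h. Tyms stood at 25.2, 25.7 and 27.2 CPM at 0 h, then 27.1, 27.8 and 23.2 CPM at 4 h (log2 change -0.00 ± 0.18). Of the other examples, Mcm2 (-0.78), Mcm5 (-0.32), Mcm6 (-0.28), Cdc6 (-1.12), Pcna (-0.32), Rrm1 (-0.29), Rrm2 (-1.04), Ccne2 (-0.62), Ccna2 (-0.86), Ccnb1 (-0.74), Cdk1 (-0.72), Plk1 (-1.01), Top2a (-0.44), Mki67 (-0.25) and Aspm (-0.93) did not pass in the fit without a block. At 2 h no member was called, beside 7.24% of all genes lower and 8.83% higher. By edgeR 2 had an unadjusted p under 0.05, DESeq2 called 1 lower, and the median was -0.18. With only the compared groups 6 fell at 2 h, and with a block of library set and number 2 fell.

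The difference between the MyD88KO and wild-type 4 h responses was tested itself. Aspm (2.41 ± 0.53, adjusted p = 0.0055), Cenpf (2.18 ± 0.61, adjusted p = 0.028) and Cdc20 (1.69 ± 0.49, adjusted p = 0.034, all edgeR) had a higher log2 response without MyD88. Tyms (-0.77 ± 0.23, adjusted p = 0.037, edgeR) had a lower one. Of all genes 2.47% had a higher and 4.39% a lower response, 6.86% in all. The median difference was 1.11 for mitotic and 0.25 for replication members, beside 0.02 for all genes. The replication value was 0.13 without high-numbered and 0.44 without low-numbered wild-type replicate 2 at 4 h. Against low-numbered wild-type libraries alone none of the 4 was called, with Aspm at 1.76 (adjusted p = 0.16), Cenpf at 1.53, Cdc20 at 1.26 and Tyms at -0.59, and the mitotic median was 0.75. With library set and replicate number as a block 20 members were higher and 1 lower. Counts hung on single libraries: 16 were higher without low-numbered wild-type replicate 2 at 4 h, 5 without replicate 1 there, and 1 without any 1 of the MyD88KO libraries at 0 h or without replicate 2 at 4 h. The Tyms call was lost without any 1 of the 6 MyD88KO libraries at 0 and 4 h, without high-numbered wild-type replicate 1 at 0 or 4 h, or without low-numbered wild-type replicate 3 at 4 h. The remaining examples ran from -0.02 (Pcna, Ccne1) to 1.36 (Ccnb1) and did not pass. At 2 h no difference passed for any member, none had an unadjusted p under 0.05, and 0.0553% of all genes were higher and 0.387% lower.

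In the libraries labelled TrifKO 1 member fell by 4 h, the cyclin Ccnb2 (-1.01 ± 0.35, adjusted p = 0.032, edgeR), and 1 rose, Tyms, where 11.5% of all genes were called lower and 14.4% higher, 25.9% in all. Tyms went from 15.2, 16.4 and 14.9 CPM in replicates 1, 2 and 3 to 38, 37.5 and 35.4 CPM, apart in every library (log2 change 1.25 ± 0.19, adjusted p = 1.4e-05, edgeR). The median was -0.46 for mitotic and -0.25 for replication members, beside 0.00 for all genes, and 22 members did not overlap between 0 and 4 h, beside 52.2% of all genes. Cdc20 held 37.9, 42.8 and 43.9 CPM at 0 h, 22, 24.6 and 35.2 CPM at 2 h, then 28.0, 24.2 and 27.1 CPM at 4 h, and its 4 h change of -0.65 ± 0.40 did not pass. Mcm10, which had risen in wild-type cells, stood at 11.4, 11.7 and 13.7 CPM at 0 h, then 11.2, 10.8 and 14.6 CPM at 4 h (log2 change -0.00 ± 0.22). The other examples ran from -0.98 (Aspm) to 0.19 (Mcm5) and did not pass. At 2 h Tyms rose by 0.79 ± 0.19, and Cdt1 (-0.84 ± 0.25), E2f1 (-0.73 ± 0.23) and Aspm (-1.18 ± 0.43, adjusted p = 0.05, edgeR) fell, beside 9.41% of all genes lower and 11.3% higher. At that time 15 members did not overlap with 0 h, beside 49.2% of all genes. Of these 3, none fell without replicate 2 at 2 h, and 1 without replicate 1 at 2 h or without replicate 1 or 2 at 0 h. The 2 h medians were 0.02 for replication and -0.375 for mitotic members. Without both low-Ticam1 libraries they were -0.21 and -0.53, so the replication sign turned. The 1 that fell at 4 h was not called without replicate 1 or 2 at 4 h or without any 1 library at 0 h. Some other fits called more falls. With only the compared groups 10 members fell at 2 h and 20 at 4 h, and within the high-numbered set 6 and 7.

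In the libraries labelled TrifKO replicate 3 stood above the others at 2 and 4 h for Rrm2 and for Mcm2 to Mcm7. For E2f1 it did not, and for Aspm it stood apart at 2 h only. Aspm held 12.8, 13 and 23.95 CPM in replicates 1, 2 and 3 at 2 h, then 21, 16.7 and 19.4 CPM at 4 h. Rrm2 held 26.8, 25.4 and 70.3 CPM in replicates 1, 2 and 3 at 2 h, then 19.1, 19.9 and 50.4 CPM at 4 h. In the same order Mcm7 held 22.45, 24.39 and 52.45 CPM, then 18.16, 19.04 and 42.12 CPM. E2f1 held 10.39, 7.32 and 8.38 CPM, then 9.723, 10.72 and 8.287 CPM. Replicate 3 at 2 h and replicate 3 at 4 h are the 2 libraries with low Ticam1. Their progenitor markers summed to 110.6 and 89.4 CPM, beside 47.7 to 47.9 and 31.5 to 33 CPM in the other libraries of the same times, and their mast cell markers to 165 and 174 CPM, beside 32.8 to 40.9 and 38.4 to 42.9 CPM. The part of these markers in the members' values was not tested. In high-numbered wild-type replicate 3, with Ticam1 at 31.8 to 38 CPM, Rrm2 was high as well. It held 79.2 CPM at 0 h beside 36.4 and 40.4 CPM in replicates 1 and 2. At 2 h it held 68.55 beside 21.7 and 24.8 CPM, and at 4 h 17.9 beside 8.55 and 8.97 CPM. Low-numbered wild-type replicate 3 was the lowest of its set, at 69.9, 45.84 and 10.34 CPM. Without both low-Ticam1 libraries, as without replicate 3 at 4 h alone, 3 members fell and 1 rose at 4 h. The 4 h replication median was -0.48 without both and -0.08 without replicate 2 at 4 h.

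Against the wild-type response at 4 h, 14 members had a higher log2 response in the libraries labelled TrifKO (13 mitotic and Mcm2) and 1, Mcm10, a lower one, beside 8.99% and 9.30% of all genes. The differences were largest for Cenpf (2.49 ± 0.61), Aspm (2.36 ± 0.53), Cdc20 (2.09 ± 0.49) and Kif20a (1.91 ± 0.46), with adjusted p-values of 0.0048, 0.0021, 0.0032 and 0.0037 by edgeR. Plk1 (1.85), Ccnb1 (1.83), Ccna2 (1.59), Top2a (1.44) and Mcm2 (1.08) passed as well. Mcm10 differed by -0.74 ± 0.27, at an adjusted p of 0.05, and DESeq2 gave -0.81 (adjusted p = 0.018). The median difference was 1.57 for mitotic and 0.71 for replication members, beside 0.06 for all genes. Rrm2 (1.60 ± 0.62), Cdc6 (1.27), Rrm1 (0.77), Ccne2 (0.76), E2f1 (0.72), Mcm5 (0.71), Mcm6 (0.40), Ccne1 (0.38), Cdk1 (0.90), Mki67 (0.53) and Pcna (-0.05) did not pass. Within the high-numbered set 21 members were higher and none lower, with a mitotic median of 2.16 and Aspm at 3.35. Without the 2 low-Ticam1 libraries 9 were higher and 1 lower, with a mitotic median of 1.44 and a replication median of 0.45. Leaving out 1 library gave 23 higher members without low-numbered wild-type replicate 2 at 4 h. It gave 8, 9 and 9 higher without replicates 1, 2 and 3 labelled TrifKO at 0 h and 9 without replicate 3 at 4 h. The lower call of Mcm10 was lost without any 1 of 10 libraries: each of the 3 labelled TrifKO at 0 h, replicates 1 and 2 of them at 4 h, high-numbered wild-type replicates 1 and 2 at 0 h and the 3 low-numbered wild-type libraries at 4 h. At 2 h no difference passed and none had an unadjusted p under 0.05, beside 0.131% of all genes higher and 1.25% lower, 1.38% in all. The median difference of the members at 2 h was 0.24, or -0.04 without the 2 low-Ticam1 libraries.

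**Figure D4:**
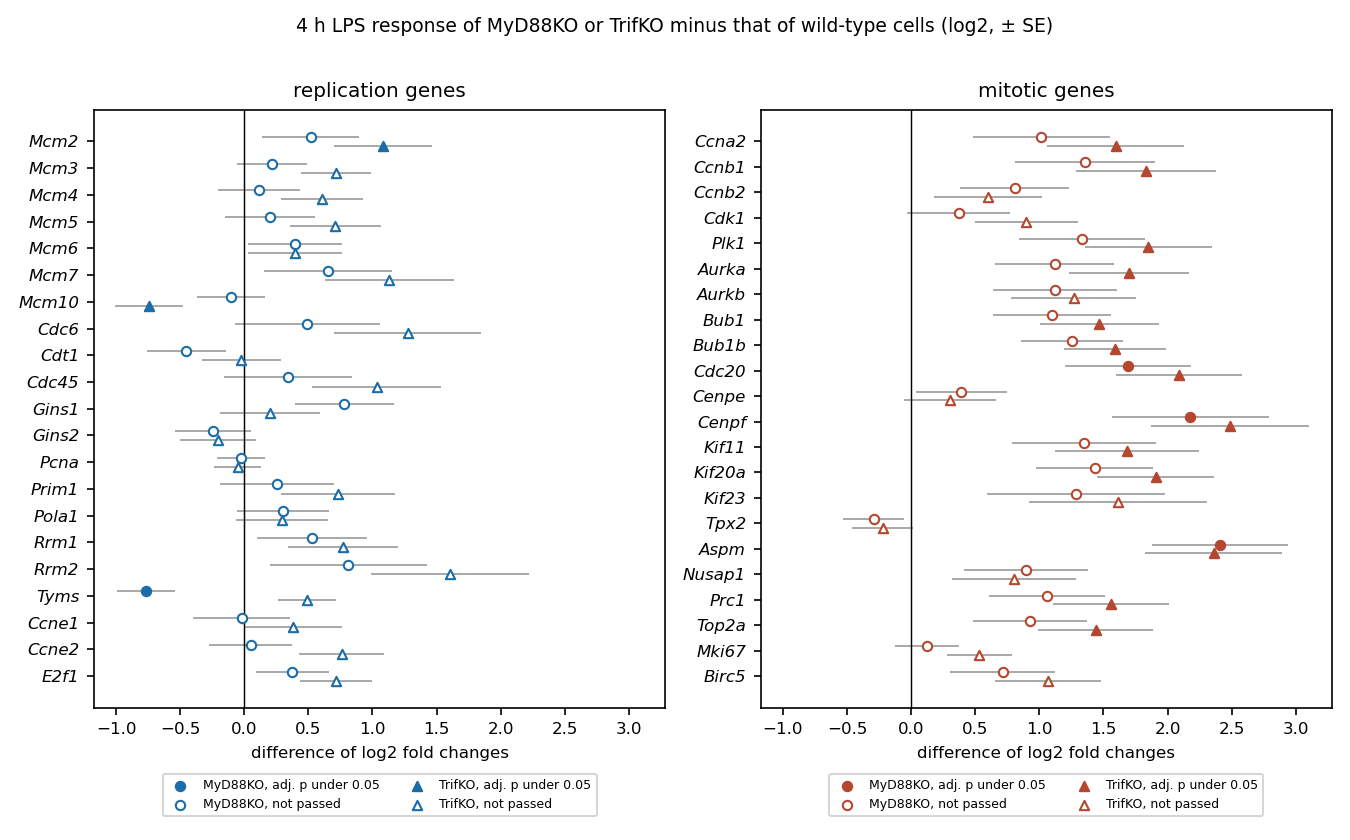
Difference of the 4 h log2 responses, MyD88KO (circles) or libraries labelled TrifKO (triangles) minus wild type, with SE, for each member; filled marks have an adjusted p under 0.05. Most mitotic members lie right of 0, up to 2.49 for Cenpf, while Tyms (MyD88KO) and Mcm10 (labelled TrifKO) lie left.

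Levels were also compared at each time. At 4 h 22 members (18 mitotic) were higher and 1 lower in MyD88KO than in wild-type cells, beside 13.7% and 14.6% of all genes, 28.4% in all. Aspm held 19, 35.4 and 24.2 CPM in MyD88KO cells, above all wild-type libraries (log2 difference 2.53 ± 0.36), and Cenpf (2.32), Cdc20 (1.99) and Kif20a (1.77) followed. Tyms was lower (-0.52 ± 0.16), with no overlap. The higher count was 13 without MyD88KO replicate 2 at 4 h, Tyms was not called without replicate 3 there, and the counts were 8 higher and 1 lower within the low-numbered set. In the libraries labelled TrifKO 15 members (13 mitotic) were higher and 3 lower, beside 17.7% and 15.6% of all genes. Cenpf (2.15 ± 0.41), Aspm (2.07), Cdc20 (1.72) and Kif20a (1.53) were again highest. Mcm10 (-1.24 ± 0.20, adjusted p = 1.5e-05, edgeR), Tpx2 (-0.57 ± 0.17) and Gins2 (-0.56 ± 0.22) were lower. Within the high-numbered set 22 were higher and 3 lower. In the pooled fit the median difference at 4 h was 0.37 over all members and 0.13 over replication members. Without the 2 low-Ticam1 libraries these medians were 0.16 and -0.10, so the replication sign turned. At 0 h no member passed in either comparison, beside 0.0622% of all genes for MyD88KO and 0% for the libraries labelled TrifKO. All 43 differences were above 0 for MyD88KO (median 0.27, none with an unadjusted p under 0.05) and below 0 for the libraries labelled TrifKO (median -0.45, 8 with an unadjusted p under 0.05). At 0 h 2 members did not overlap between MyD88KO and wild type, beside 3.24% of all genes, and 13 between the libraries labelled TrifKO and wild type, beside 4.59%. Within the matching set the medians were 0.15 and -0.31, and with a term for the set -0.02 and -0.16, so the sign for MyD88KO turned.

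Further cell cycle lists were counted in these cells too. In MyD88KO cells at 4 h 9 of 42 further replication genes fell and 2 rose, and 13 of 52 further mitotic genes fell and 1 rose, Pttg1 (2.39), not far from the 17% of all genes called lower there. Ccnd2 (4.39), Ccnd1 (2.45) and Cdkn1a (2.21) rose there as well. In the libraries labelled TrifKO 3 and 1 of these genes fell and 1 of each list rose, beside 11.5% and 14.4% of all genes, with Ccnd2 at 2.78 and Cdkn1a at 0.91. Against the wild-type response, 30 of 52 further mitotic genes were higher and 1, Pttg1 (-2.70 ± 0.26), lower in the libraries labelled TrifKO, beside 8.99% and 9.30% of all genes, and Ccnd2 (-2.63) and Cdkn1a (-1.68) were lower. In MyD88KO cells 6 of 52 were higher, beside 2.47% of all genes, led by the separase Espl1 (1.72), and neither Ccnd2 nor Cdkn1a passed.

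Loss of Suv39h1 or Ifnar moved no member past the test in untreated dendritic cells. Over all genes 0.209% were called between Suv39h1KO and wild-type cells, 0.222% between them on the IfnarKO background, 0.125% between IfnarKO and wild-type cells and 0.160% on the Suv39h1KO background. In Suv39h1KO cells 41 of 43 differences were above 0 and the mitotic median was 0.34, beside 0.01 for all genes, but none had an unadjusted p under 0.05. That median was 0.19 without wild-type replicate 3 and 0.53 without wild-type replicate 1. Kif20a held 119, 96.7 and 88.0 CPM in wild-type replicates 1, 2 and 3 and 146, 127 and 128 CPM in Suv39h1KO cells. Cdc20 held 62.0, 48.7 and 37.0 CPM in wild-type, 74.7, 68.3 and 54.9 CPM in Suv39h1KO, 77.7, 46.9 and 26.6 CPM in IfnarKO and 82.8, 69.2 and 52.7 CPM in doubly deficient cells. Replicate 1 was highest and replicate 3 lowest in all 4 groups. The libraries of 5 mitotic members (Bub1, Cenpe, Cenpf, Kif20a and Aspm) did not overlap between Suv39h1KO and wild-type cells, beside 8.80% of all genes. The examples ran from -0.08 (E2f1) to 0.45 (Plk1) in Suv39h1KO, from -0.19 (E2f1) to 0.44 (Cdc20) on the IfnarKO background, and from -0.21 (Cdc6, Ccne1) to 0.14 (E2f1) in IfnarKO cells. On the Suv39h1KO background the IfnarKO median was -0.19, or -0.06 without Suv39h1KO replicate 1, and the examples ran from -0.37 (Top2a) to 0.05 (Cdc20). With the replicate number as a block, where numbers pair these libraries, no member passed either.

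In RAW264.7 cells most members had fallen by 2 h. With the control guide 27 members fell (17 mitotic, 10 replication) and 1 rose, where 25.3% of all genes were called lower and 26.3% higher. The median log2 change was -0.48 for mitotic and -0.18 for replication members, beside -0.00 for all genes. Summed mitotic levels went from 3965 ± 186 CPM (SD, n = 3) to 2881 ± 196 CPM (n = 3) and replication levels from 2996 ± 55.2 to 2614 ± 77.9 CPM. Groups did not overlap for 34 members, beside 60.6% of all genes.

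Aspm held 98.3, 90.0 and 102 CPM at 0 h, then 43.5, 44.3 and 44.7 CPM at 2 h, a log2 change of -1.13 ± 0.13 (adjusted p = 1.1e-06, edgeR). Plk1 held 73.2, 72.5 and 74.6 CPM and then 38.3, 36.4 and 38.9 CPM (-0.96 ± 0.06, adjusted p = 8.0e-10, edgeR). Both had tight replicates far apart between times. Cenpf (-0.99), Mki67 (-0.60), Ccna2 (-0.52) and Cdc20 (-0.44) fell too. Ccnb1 (-0.19), Cdk1 (-0.02) and Top2a (-0.20) did not pass. At the entry to S phase Cdc6 went from 33.2, 32.0 and 34 CPM to 18.4, 17 and 19.9 CPM (-0.85 ± 0.08), Ccne2 fell by 0.82, Ccne1 by 0.81 and E2f1 by 0.34. Of the ring subunits Mcm6 (-0.33) and Mcm2 (-0.27) fell, and Mcm3, Mcm4, Mcm5 (-0.10) and Mcm7 did not pass. Mcm10 fell by 0.31 ± 0.10, Rrm1 by 0.23 and Pcna by 0.20 ± 0.05, while Rrm2 (-0.18) and Tyms (-0.12) did not pass. Cdc45, which joins the helicase, was the 1 member that rose, from 46.5, 45.4 and 52.7 CPM to 55.7, 60.1 and 65.8 CPM (0.33 ± 0.07, adjusted p = 0.0011, edgeR). Of the other lists 22 of 42 further replication genes fell and 2 rose, and 40 of 52 further mitotic genes fell and 2 rose, beside 25.3% of all genes lower and 26.3% higher. The growth-arrest gene Gadd45a (4.21) and Cdkn1a (1.25) rose, and E2f2 (-2.20) fell.

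Cells with the other guides were counted in the same way. With guide 1, 30 members fell and 1 rose (median -0.34), beside 25.1% and 26.2% of all genes, and with guide 2, 32 fell and 1 rose (median -0.35), beside 24.5% and 26.3%. Cdc45 was the gene that rose in both (0.33 and 0.31). Aspm (-1.13 and -1.10), Plk1 (-0.96 and -0.98), Cenpf (-0.97 and -0.92) and Cdc6 (-0.91 and -0.83) fell most. Among the other examples Mcm2, Mcm6, Pcna, Rrm1, Rrm2, Ccne1, Ccne2, E2f1, Ccna2, Cdc20 and Mki67 fell with both guides, Mcm5 (-0.12) and Top2a (-0.22) fell with guide 2 only, without a test of the difference between guides, and Ccnb1 and Cdk1 with neither. Before LPS no member passed between guide 1 and the control guide, beside 2.24% of all genes, with 40 of 43 differences above 0 and 6 at an unadjusted p under 0.05. Guide 2 cells held more Ccne1 (0.35), Ccne2 (0.28), Cenpe (0.28) and Ccna2 (0.25), beside 2.58% of all genes higher. Ccna2 held 230, 236 and 228 CPM with guide 2 and 197, 194 and 194 CPM with the control guide (adjusted p = 0.0053, edgeR), without overlap. The 4 calls became 1 without guide 2 replicate 1 or control replicate 1 or 2, and 2 without guide 2 replicate 2 or 3.

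The 2 h responses of control-guide RAW264.7 and wild-type dendritic cells were compared in 1 fit. Cell type, strain, guide and experiment cannot be told apart in it. Mki67, which fell in the macrophages (-0.60) and rose in the dendritic cells (0.51), had a lower response in RAW264.7 cells by 1.13 ± 0.21 (adjusted p = 0.0015, edgeR), beside 7.47% of all genes. Cdt1 fell in both and had a higher response in RAW264.7 cells by 0.49 ± 0.16 (adjusted p = 0.043, edgeR), beside 9.16% of all genes. The Cdt1 call was lost when any 1 of 11 libraries was left out, and 3 members were higher without low-numbered wild-type replicate 1 at 2 h. For the other 41 members the difference did not pass and ran from -0.58 (Mcm10) to 0.61 (Aurka), with a median over all 43 of 0.09 beside 0.06 for all genes. Without high-numbered wild-type replicate 2 at 2 h that median was -0.04, and without low-numbered replicate 1 at 2 h it was 0.30, so its sign rests on single libraries. Set side by side without a test, since the experiments were scaled apart, mitotic members stood at a median of 32.15 CPM per kb in control-guide RAW264.7 cells and 17.15 in wild-type dendritic cells at 0 h, and replication members at 15.84 and 4.466. The ratio of RAW264.7 to dendritic cells had a median of 1.97 over mitotic members (0.992 for Nusap1 to 3.04) and 3.52 over replication members (1.68 to 7.06 for Cdt1).

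**Figure D5:**
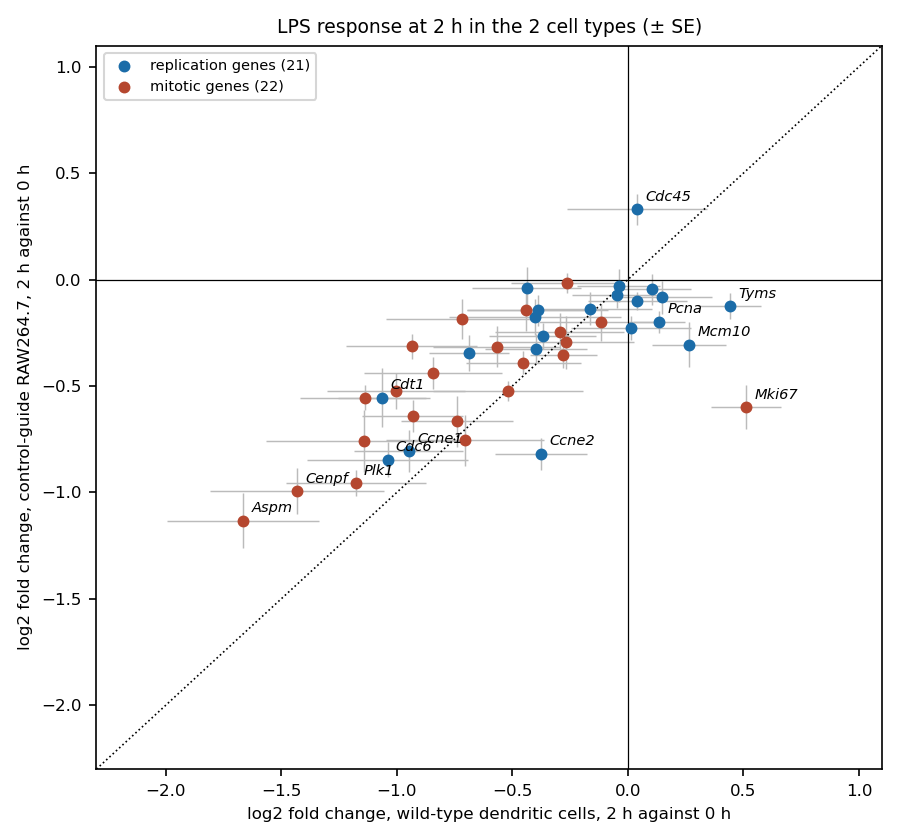
Log2 fold change at 2 h of LPS in control-guide RAW264.7 cells (y axis) against wild-type dendritic cells (x axis), with SE, for 21 replication (blue) and 22 mitotic (red) members; the dotted line marks equal change. Mki67 lies far below the line and Aspm has the largest fall in both.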

How the data were processed

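Gene counts deposited by the authors were used as they stand, in 65 libraries. Per the submitters' processing notes STAR, HOMER, DESeq2 and mm10 were used, with roles and versions not given in the sources used here. The table of transposable elements was not used. Libraries were grouped by their labels. edgeR 4.0.16 in R 4.3.3 was run per experiment, with TMM scaling, filterByExpr and a quasi-likelihood fit over 14386, 14475 and 13078 genes (the second, the third and the fifth experiment) and 14624 in the joint fit of RAW264.7 and dendritic cells. SE is the absolute log2 change over the root of F. The tests were checked on simulated counts before use. Libraries held 36879570 to 95292653 counts. The members and lists were chosen with earlier results of these data known. Named in each comparison were 18 fixed examples and up to 4 called members with the largest rise and the largest fall, and from other lists the largest called changes. Deviations of libraries with the same replicate number were correlated within experiments: numbers paired the libraries of the second experiment (lowest r 0.268) of MyD88KO (0.484), of high-numbered wild type (0.315) and of guide 2 across times (0.128). They did not reach 0.1 in every pair for low-numbered wild type (0.024), libraries labelled TrifKO (-0.264), the control guide (0.059), guide 1 (0.074) or across guides at 0 h (0.017 to 0.197). The design text gives 3 biological replicates per condition. Wild-type libraries of the third experiment share replicate numbers across sets, and whether these came from the same cells is not given, so p-values there may be too small. Alternatives were DESeq2 1.42.0, other scaling, no filter, only the compared groups, blocks, library sets and leaving out each library.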

Additional observations from a re-analysis of the deposited data

Results flagged for a closer look

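In 129 checks of a single library standing apart within a group of 4 to 10, 5 passed Dixon's limit. Chance flags about 1 in 20 groups when checks are independent. These checks were made on the same libraries for many genes, so that share cannot tell whether the 5 flags are chance. Low-numbered wild-type replicate 1 at 2 h was far above the other libraries for Gins1 (6.935 CPM), Ccnb2 (68.9 CPM), Cdk1 (99.5 CPM) and Birc5 (77.25 CPM). High-numbered wild-type replicate 3 at 0 h was far above them for Aspm (67.22 CPM).

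The log2 response at 4 h differed between MyD88KO and wild-type cells for Tyms (-0.765), Cdc20 (1.69), Cenpf (2.18) and Aspm (2.41). Against low-numbered wild-type libraries alone, the set that holds all MyD88KO libraries, none of the 4 passed (Aspm 1.76, adjusted p = 0.16, edgeR), and the Tyms call was lost without any 1 of the 6 MyD88KO libraries at 0 and 4 h. It differed between the libraries labelled TrifKO and wild-type cells for Mcm10 (-0.745), Mcm2 (1.08), Top2a (1.44), Bub1 (1.47), Prc1 (1.56), Bub1b (1.59), Ccna2 (1.59), Kif11 (1.68), Aurka (1.70), Ccnb1 (1.83), Plk1 (1.85), Kif20a (1.91), Cdc20 (2.09), Aspm (2.36) and Cenpf (2.49). Of these, the Mcm10 call was lost within the high-numbered set, under upper-quartile scaling and without any 1 of several libraries. The 2 h response differed between control-guide RAW264.7 and wild-type dendritic cells for Mki67 (-1.13) and Cdt1 (0.494), and the Cdt1 call was lost without any 1 of several libraries. Each of these differences was tested itself, by edgeR's quasi-likelihood test.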

How the results depend on the processing

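No called change of a named member turned its sign under an alternative, and signs of members not named in a comparison were not followed there. Among the values of named members under the other settings 3559 stayed on their side of the threshold, 162 passed it only there and 93 were lost. With 1 library left out 4366 stayed, 34 passed only there and 213 were lost. Counts below are of members called, and the cause of each move was not tested unless fewer libraries or genes entered the fit. DESeq2 gave 3 that rose in wild type between 2 and 4 h, 1 that fell in MyD88KO at 2 h and 11 at 4 h. It gave 2 that rose in TrifKO at 2 h, 3 that fell at 4 h, 5 with a higher MyD88KO than wild-type response at 4 h, 7 higher in guide 2 than control cells and 2 with a lower RAW264.7 than dendritic cell response. Upper-quartile scaling moved the median of all genes by -0.108 (wild type, 2 h) and -0.177 (4 h). It gave 0 that rose between 2 and 4 h, 1 that fell in MyD88KO at 2 h, 0 that rose and 17 that fell there at 4 h and 5 that fell in TrifKO at 4 h, with 5 higher and 0 lower MyD88KO responses and 0 lower TrifKO responses. With no filter 4 fell in MyD88KO at 4 h, 0 had a lower MyD88KO response and 0 a higher RAW264.7 response. With only the compared groups 1 rose in wild type at 2 h and 0 between 2 and 4 h, 6 fell in MyD88KO at 2 h and 27 at 4 h, and in TrifKO 2 rose and 10 fell at 2 h and 20 fell at 4 h. That fit gave 1 higher and 0 lower MyD88KO responses, 0 lower TrifKO responses, and 12 and 8 members higher at 4 h in MyD88KO and TrifKO than in wild type.

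With the replicate number as a replicate block 11 fell in MyD88KO at 4 h, 2 rose in TrifKO at 2 h and 2 fell at 4 h, 5 had a higher MyD88KO response, and 3 and 15 were higher with guides 1 and 2 than with the control guide. Across guides at 0 h same-numbered libraries correlated at 0.017 to 0.197 and others at -0.048 on average, so not every pair reached 0.1. The block changed no call in the second experiment. In the libraries labelled TrifKO a number joins libraries of different sex, so blocked values there are not those of pairs. A term for the library set gave 2 that rose between 2 and 4 h, 18 that fell in MyD88KO and 3 in TrifKO at 4 h, 10 higher MyD88KO responses and 23 members higher in TrifKO than wild type at 4 h. Set and number together as a replicate block gave 23 that fell in wild type at 2 h, 2 that rose between 2 and 4 h, 2 and 31 that fell in MyD88KO at 2 and 4 h, 2 that rose and 10 that fell in TrifKO at 2 h and 11 that fell at 4 h. It gave 20 and 31 higher MyD88KO and TrifKO responses and 30 members higher in TrifKO at 4 h. The low-numbered set alone gave 1 that rose and 3 that fell in wild type at 2 h, 1 and 15 that fell in MyD88KO at 2 and 4 h, 0 higher and 0 lower MyD88KO responses and 8 members higher in MyD88KO at 4 h. The high-numbered set alone gave 3 that rose between 2 and 4 h, 2 that rose and 6 that fell in TrifKO at 2 h, 7 that fell at 4 h and 0 lower TrifKO responses. Without the 2 low-Ticam1 libraries 3 fell in TrifKO at 4 h and 9 had a higher response. With wild-type libraries of a number summed 2 rose between 2 and 4 h, 2 and 25 fell in MyD88KO, 2 rose and 9 fell in TrifKO at 2 h, 10 fell at 4 h and 5 had a higher MyD88KO response.

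Leaving out 1 library at a time gave 11 to 25 that fell and 1 to 2 that rose in wild type at 2 h, 37 to 39 and 2 to 2 at 4 h, and 26 to 33 and 0 to 3 between 2 and 4 h. It gave 2 to 8 that fell and 0 to 1 that rose in MyD88KO at 4 h, and 0 to 3 that fell and 1 to 1 that rose in TrifKO at 2 h and again at 4 h. Higher responses numbered 1 to 16 (MyD88KO) and 8 to 23 (TrifKO), and lower ones 0 to 1 in both. Members higher at 4 h numbered 13 to 31 and 11 to 20, and lower ones 0 to 1 and 2 to 3. In RAW264.7 cells 24 to 31, 22 to 31 and 24 to 37 fell with the control guide and guides 1 and 2 and 1 to 1 rose, 1 to 3 were higher with guide 2 at 0 h, and 0 to 3 had a higher and 1 to 1 a lower response than dendritic cells. All other counts stayed at 0 to 0.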
